A study of Homo sapiens with 4 samples.

Results

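The ligand genes of the VEGF, PDGF and FGF families were followed in Daoy cells, an established human medulloblastoma line, after depletion of PELP1. The members were named by symbol as VEGFA, VEGFB, VEGFC, PGF, PDGFA, PDGFB, PDGFC, PDGFD, FGF2 and FGF5, and all 10 were found among the 23228 gene rows of the count files. RNA sequencing was carried out on cells stably expressing a PELP1 shRNA (n = 2 libraries) and on cells stably expressing a control shRNA (n = 2 libraries). Both shRNAs were delivered by lentivirus and the cells were grown in DMEM with serum. The sources used here give neither the shRNA sequences nor whether each line was a clone or a pool.

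VEGF, PDGF and FGF ligands are secreted growth factors that act through receptor tyrosine kinases on the same or neighbouring cells. VEGF and PDGF ligands are related cystine-knot proteins that act as dimers. VEGFA drives the growth of blood vessels, VEGFC that of lymphatic vessels, and PDGF ligands act mainly on mesenchymal and perivascular cells. FGF2 and FGF5 bind FGF receptors together with heparan sulfate chains. In tumours such ligands are known both as signals to the vasculature and stroma and as autocrine factors.

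Of the 10 ligand genes, 5 were lower with the PELP1 shRNA (VEGFA, VEGFC, PDGFA, FGF2 and FGF5), 2 were higher (VEGFB and PGF), 2 did not pass the threshold (PDGFB and PDGFC), and 1 had too few reads to test (PDGFD). The test was the quasi-likelihood test of edgeR across 14972 genes, with a false discovery rate (FDR) threshold of 0.05. Against these 7 of 9 tested members stands a background of 58.1% of all tested genes called, 29.5% lower and 28.6% higher, so the share of called members alone is no feature of these ligands. The median log2 fold change (PELP1 shRNA over control shRNA) was −0.42 over the 9 tested members and 0.00222 over all tested genes. In a test against a 1.5-fold change, 9.63% of all genes were called, and 3 of the 9 members were (VEGFC, FGF2 and FGF5, all lower). The libraries of the 2 groups did not overlap in 8 of the 9 tested members, against 77.7% of all tested genes.

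The promoters of a pair of ligands that fell (VEGFC and FGF5) and of both ligands that rose (VEGFB and PGF) are shown because these genes moved in opposite directions. Each line gives the 250 bases before the first RefSeq transcript start listed for the gene, 5′ to 3′ on the strand of the gene. The sequences are those of RefSeq (GRCh38.p14), and their exact match in GRCh37 (hg19) lies at chr4:177714077-177714326 (minus strand) for VEGFC, chr4:81187492-81187741 (plus strand) for FGF5, chr11:64001806-64002055 (plus strand) for VEGFB and chr14:75422468-75422717 (minus strand) for PGF. Capitals mark GCGTG, a core of the hypoxia response element, or its reverse complement.
VEGFC: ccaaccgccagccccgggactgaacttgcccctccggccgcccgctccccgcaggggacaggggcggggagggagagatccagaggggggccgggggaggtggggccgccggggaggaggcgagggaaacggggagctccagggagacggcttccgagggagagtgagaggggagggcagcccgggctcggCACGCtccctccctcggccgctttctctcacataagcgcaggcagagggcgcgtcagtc
FGF5: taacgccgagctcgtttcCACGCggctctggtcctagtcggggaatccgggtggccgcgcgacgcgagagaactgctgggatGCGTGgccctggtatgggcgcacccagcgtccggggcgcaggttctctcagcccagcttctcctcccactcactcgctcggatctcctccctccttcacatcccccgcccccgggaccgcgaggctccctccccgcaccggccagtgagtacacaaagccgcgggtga
VEGFB: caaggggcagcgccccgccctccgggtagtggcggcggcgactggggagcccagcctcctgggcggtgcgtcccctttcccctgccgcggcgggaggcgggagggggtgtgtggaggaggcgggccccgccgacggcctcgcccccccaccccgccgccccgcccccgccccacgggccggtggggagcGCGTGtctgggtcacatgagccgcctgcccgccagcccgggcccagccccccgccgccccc
PGF: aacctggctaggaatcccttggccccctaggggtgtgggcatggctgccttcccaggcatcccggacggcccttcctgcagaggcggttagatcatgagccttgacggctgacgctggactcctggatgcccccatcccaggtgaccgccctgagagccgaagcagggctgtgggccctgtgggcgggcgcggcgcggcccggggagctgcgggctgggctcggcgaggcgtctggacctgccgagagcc

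RefSeq windows were at hand for 7 members (VEGFB, VEGFC, PGF, PDGFA, PDGFD, FGF2 and FGF5). Searched on both strands, GCGTG was in the first listed window of 5 of the 7 (all but PGF and PDGFD), against 31.9% of the first windows of 27305 genes, and the other core form, ACGTG, was in 0 of the 7, against 18.7%. The GC box GGGCGG was in 7 of 7, against 42.3%. The EGR motif GCGNGGGCG was in 2 (VEGFB and PDGFA), against 8.25%, where each match overlapped a GC box and 1 match in PDGFA also touched GCGTG. An AP-1 motif (TGANTCA) was in 0 of the 7 (6.6% of all windows), as were a TEAD motif (GGAATG, 11.9%), a TATA motif (TATAAA, 11.1%) and the kappaB consensus (5.05%). The first windows of the 7 members had a GC content of 68.8% to 82.8%, against a median of 58% over all windows, so GC-rich motifs had more chances in them. Among the first listed windows, GCGTG was in those of all 4 members with a window that fell (VEGFC, PDGFA, FGF2 and FGF5) and of 1 of the 2 that rose (VEGFB). The other ligand that rose, PGF, has GCGTG in its second listed window. The 31.9% covers first windows only and genes differ in the number of windows listed, so no background stands beside that match. Likewise FGF5 has TATAAA in its second listed window, outside the 0 of 7 above. A match is a description of the letters and not a binding site.

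The libraries held 29221640 and 26760085 counts in genes with the PELP1 shRNA and 24052542 and 26629578 with the control shRNA. PELP1 itself had 55.6 and 49.7 CPM (counts scaled to library size with TMM factors) in the PELP1 shRNA libraries and 168.2 and 185.2 CPM in the control shRNA libraries, 29.8% of the control level (edgeR FDR = 1.54e-33). Of 12 cerebellar granule lineage markers, 8 had enough reads to test. Their summed level was 108 and 111 CPM with the PELP1 shRNA and 113 and 115 CPM with the control shRNA, and the defining factor ATOH1 had 0 to 3 counts per library. Of the 8, 4 were higher (ZIC2, PAX6, OTX2 and GLI1) and 1 was lower (GLI2), with a median log2 fold change of 0.17. DESeq2 in place of edgeR called 1 higher and 1 lower, and limma-voom 4 higher and 1 lower. With biological variation fixed at 20% in edgeR, 0 were higher and 0 lower (1 and 1 at an unadjusted p under 0.05). GLI2 averaged 23.5 CPM with the PELP1 shRNA and 38.5 CPM with the control shRNA. Of 10 endothelial markers, 8 were tested, with sums of 51.8 and 52 CPM with the PELP1 shRNA and 122 and 129 CPM with the control shRNA, most of it from TIE1 and TEK, while EMCN had 0 or 1 count and CDH5 8 to 21 counts per library. Of those 8, 4 were lower and 2 were higher, namely PECAM1 (57 and 49 reads with the PELP1 shRNA, 11 and 7 with the control shRNA, edgeR FDR = 5.26e-08) and VWF (53 and 37 reads with the PELP1 shRNA, 20 and 15 with the control shRNA, edgeR FDR = 0.00164). Sums of 7 fibroblast markers (7 tested) were 220 and 216 CPM with the PELP1 shRNA and 420 and 441 CPM with the control shRNA, of which THY1 averaged 197.6 CPM with the PELP1 shRNA and 386.6 CPM with the control shRNA. Of these, 5 were lower and 2 were higher, DCN by 1.41 and LUM by 1.42 on the log2 scale (edgeR FDR = 0.00285 and 9.46e-10). Sums of 9 pericyte and smooth muscle markers (7 tested, 3 lower) were 178 and 171 CPM with the PELP1 shRNA and 293 and 302 CPM with the control shRNA. Of these markers, CSPG4 averaged 24.6 CPM with the PELP1 shRNA and 130 CPM with the control shRNA, and 4 of the 7 did not pass. Sums of 8 leukocyte markers (4 tested, 2 lower) were 12.7 and 7.47 CPM with the PELP1 shRNA and 18.6 and 15.2 CPM with the control shRNA. Of the 4, LAPTM5 and LYZ were lower in edgeR, and DESeq2 and limma-voom each called 1 lower. LYZ had 16 and 7 reads with the PELP1 shRNA and 39 and 11 with the control shRNA, and its groups overlapped in CPM (edgeR FDR = 0.0422). No marker of these lists was at 0 in all libraries. All 5 marker sums were lower in both PELP1 shRNA libraries, although single markers went both ways, and their part in the ligand results was not tested. Each sum is weighted towards the markers with the most reads, so it does not give the direction of a whole list. Over all tested genes, 29.5% were lower and 28.6% higher. The markers named here were chosen after their values were seen. In bulk RNA, fewer cells of a kind and less RNA per cell cannot be told apart. The labels do not say whether the libraries came from separate cultures, so the p-values reflect nothing beyond the spread of these libraries, possibly technical.

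**Figure D1:**
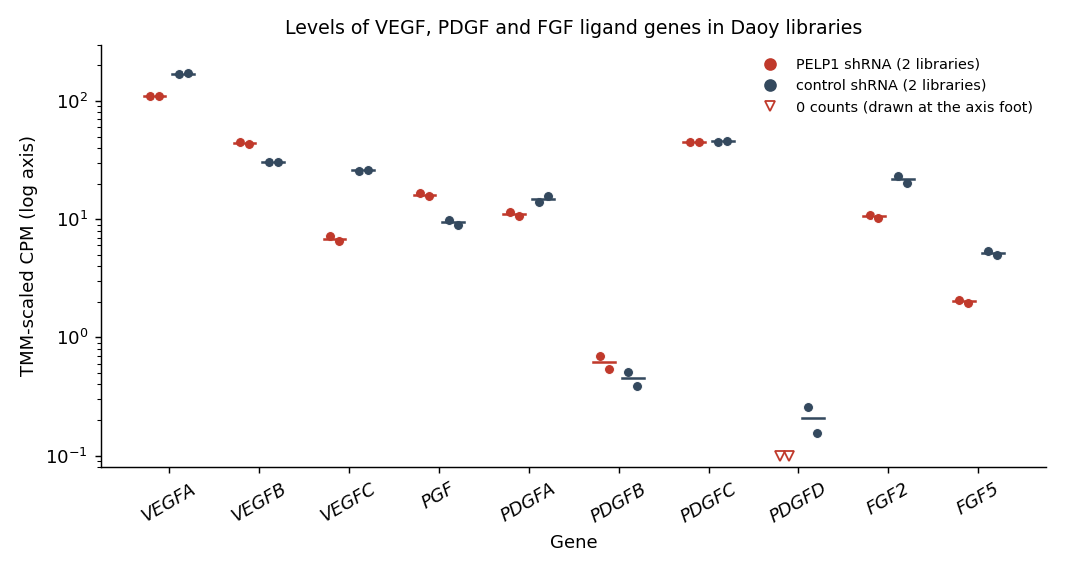
Level of each ligand gene in TMM-scaled CPM (log axis) in 2 PELP1 shRNA libraries (red, left) and 2 control shRNA libraries (dark, right), with bars at the group means. VEGFC, FGF2, FGF5, VEGFA and PDGFA lie lower and VEGFB and PGF higher with the PELP1 shRNA, PDGFC lies at 45.3 and 45.7 CPM in the group means, and PDGFD had 0 counts in both PELP1 shRNA libraries (open triangles at the foot of the axis).

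VEGFC had the largest fall among the 9 tested members. It lies on chromosome 4 (GRCh37, minus strand, 177604689 to 177714076) and encodes the main ligand of VEGFR3, the receptor of lymphatic endothelium. The level was 7.16 and 6.49 CPM in the PELP1 shRNA libraries and 25.8 and 26.1 CPM in the control shRNA libraries, from 216 and 179 reads against 603 and 672. The groups lay far apart, each with little spread. The log2 fold change was −1.92 ± 0.10 (SE; edgeR FDR = 1.26e-26; against a 1.5-fold change, FDR = 1.08e-19), which leaves 26.4% of the control level. Of all tested genes, 0.995% had a lower log2 fold change.

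VEGFA, the principal angiogenic factor of the family (chromosome 6, plus strand, 43737921 to 43754224), was also lower. Its level was 109.5 and 110.1 CPM with the PELP1 shRNA and 168.9 and 171.0 CPM with the control shRNA, so both knockdown libraries lay below both controls. The log2 fold change was −0.63 ± 0.04 (SE, edgeR FDR = 2.14e-20), 64.6% of control. It did not pass the test against a 1.5-fold change (edgeR glmTreat FDR = 0.358), and its 95% interval reached from −0.72 to −0.55.

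The other pair of VEGF ligands rose. VEGFB, a ligand of VEGFR1 on chromosome 11 (plus strand, 64002056 to 64006736), had 45.1 and 43.6 CPM in the PELP1 shRNA libraries and 30.5 and 30.8 CPM in the controls. Its log2 fold change was 0.53 ± 0.07 (SE, edgeR FDR = 1.42e-10), or 1.45-fold. PGF, placental growth factor, also binds VEGFR1 and lies on chromosome 14 (minus strand, 75408537 to 75422329). It had 16.6 and 15.6 CPM with the PELP1 shRNA and 9.80 and 9.02 CPM with the control shRNA, with no overlap. The log2 fold change was 0.78 ± 0.10 (SE, edgeR FDR = 9.04e-10), or 1.72-fold. PGF missed the test against a 1.5-fold change (edgeR glmTreat FDR = 0.0754), while VEGFB lay below that size with TMM scaling. Scaled by library size alone, VEGFB stood at 0.62 on the log2 scale, above 1.5-fold, and VEGFA at −0.54, less than 1.5-fold.

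Ratios of reads within a library need no scaling between libraries and show the shift within the family directly. Per VEGFA read there were 0.412 and 0.396 VEGFB reads in the PELP1 shRNA libraries and 0.18 in each control library. PGF reads per VEGFA read were 0.152 and 0.142 with the PELP1 shRNA, against 0.0580 and 0.0527 with the control shRNA. Both ratios were higher with the PELP1 shRNA, 2.24 and 2.65 times in their means. VEGFC reads per VEGFA read were 0.0654 and 0.0590 with the PELP1 shRNA and 0.153 in each control library, a ratio of means of 0.407. PDGFC, which did not pass the test for a change, had 0.413 and 0.412 reads per VEGFA read with the PELP1 shRNA and 0.268 and 0.27 with the control shRNA.

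**Figure D2:**
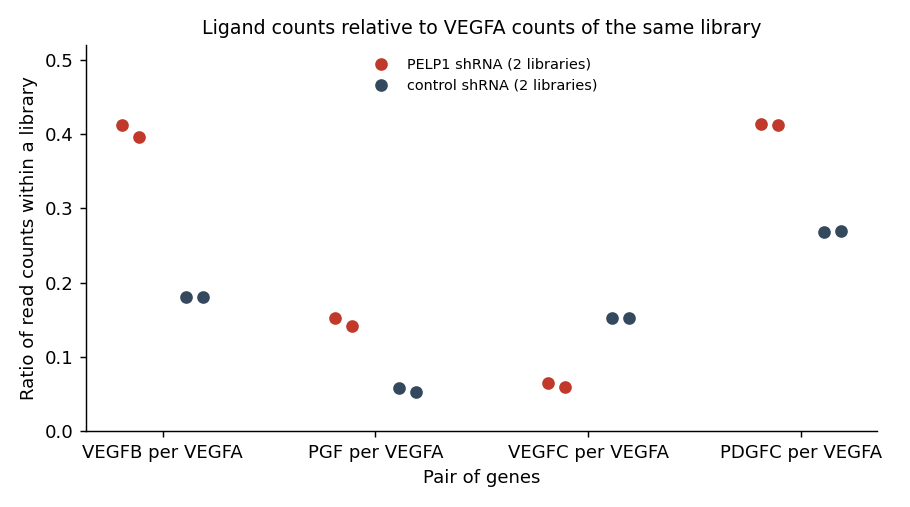
Read counts of 4 ligand genes divided by the VEGFA count of the same library (linear axis), for 2 PELP1 shRNA libraries (red, left) and 2 control shRNA libraries (dark, right). VEGFB, PGF and PDGFC lie higher relative to VEGFA in both PELP1 shRNA libraries (0.396 to 0.412 against 0.18 for VEGFB), and VEGFC lies lower (0.0590 and 0.0654 against 0.153).

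To compare levels between genes, CPM was divided by the length of the canonical GENCODE transcript in kilobases. On that scale VEGFA was the most abundant ligand in both groups, with 30.4 ± 0.127 CPM per kb with the PELP1 shRNA and 47.1 ± 0.417 CPM per kb with the control shRNA (SD, n = 2 each). VEGFB came next, with 24.6 ± 0.572 CPM per kb with the PELP1 shRNA and 17.0 ± 0.124 CPM per kb with the control shRNA (SD, n = 2 each). With the length of all annotated exons in place of the canonical transcript, VEGFB stood above VEGFA in both groups (22.5 and 7.61 CPM per kb with the PELP1 shRNA, 15.5 and 11.8 CPM per kb with the control shRNA), so the order of this pair depends on the transcripts in use. VEGFC took rank 6 of the 10 with the PELP1 shRNA (3.02 ± 0.208 CPM per kb, SD, n = 2) and rank 3 with the control shRNA (11.5 ± 0.099 CPM per kb, SD, n = 2). PGF took rank 4 with the PELP1 shRNA, at 9.26 ± 0.421 CPM per kb, next to PDGFC at 9.92 ± 0.029 (SD, n = 2 each). In the control shRNA libraries PGF and PDGFA, at 5.41 ± 0.318 and 5.42 ± 0.451 CPM per kb (SD, n = 2 each), did not differ beyond their spread. By canonical length FGF2, FGF5, PDGFB and PDGFD took the last 4 places in both groups, and by the length of all exons FGF2 stood at rank 6 and PGF at rank 7 in the control shRNA libraries. Of the summed level per kb of the 4 VEGF ligands, VEGFA made up 45.2% with the PELP1 shRNA and 58.2% with the control shRNA. VEGFB made up 36.5% of it with the PELP1 shRNA and 21% with the control shRNA (63.4% and 40% by the length of all exons). PGF made up 13.8% with the PELP1 shRNA and 6.68% with the control shRNA, and VEGFC 4.48% with the PELP1 shRNA and 14.2% with the control shRNA. By the length of all exons, VEGFA made up 21.4% with the PELP1 shRNA and 30.3% with the control shRNA, PGF 7.82% with the PELP1 shRNA and 4.17% with the control shRNA, and VEGFC 7.34% with the PELP1 shRNA and 25.5% with the control shRNA. The shares thus depend on the length used, while VEGFA and VEGFC held a lower share and VEGFB and PGF a higher one with the PELP1 shRNA under both.

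Of the PDGF ligands, 1 of 3 tested genes was lower and 0 were higher in edgeR, in DESeq2, in limma-voom and at an unadjusted p under 0.05. In edgeR 29.5% of all tested genes were lower and 28.6% higher, so this count is no feature of the PDGF ligands. PDGFA (chromosome 7, minus strand, 536895 to 559933), the ligand of PDGF receptor α, had 11.5 and 10.7 CPM with the PELP1 shRNA and 14.0 and 15.7 CPM with the control shRNA. The groups did not overlap, and the log2 fold change was −0.42 ± 0.10 (SE, edgeR FDR = 0.000224). PDGFC (chromosome 4, minus strand, 157681606 to 157892951), a ligand that is secreted in a latent form and activated by proteolysis, was the most abundant PDGF ligand per kb. It had 45.2 and 45.4 CPM with the PELP1 shRNA and 45.3 and 46.1 CPM with the control shRNA, which overlap. Its log2 fold change was −0.01 ± 0.06 (SE, edgeR FDR = 0.878), with a 95% interval of −0.13 to 0.11. The sign turned to positive when counts were scaled by library size alone (0.08, adjusted p = 0.269) or by upper-quartile factors (0.04, adjusted p = 0.579).

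PDGFB (chromosome 22, minus strand, 39619364 to 39640987), which binds both PDGF receptors, had 21 and 15 reads in the PELP1 shRNA libraries and 12 and 10 in the controls. Its ratio was 1.39 (95% counting interval 0.797 to 2.48) and the edgeR FDR 0.349, so a difference was not detectable at this depth. PDGFD (chromosome 11, minus strand, 103777917 to 104035107), a ligand of PDGF receptor β, had 0 reads in both PELP1 shRNA libraries and 6 and 4 in the control libraries. Against a floor of 3 reads over the group, and with the 10 control reads taken as exact, it was at least 3.92-fold lower, while the 95% counting interval of the ratio allows a difference as small as 2.64-fold. The low-count filter kept it out of the main test. Without that filter its edgeR adjusted p was 0.0072. Part of PDGFD, 193 exonic bases, overlaps DDI1 on the other strand. Such intervals and floors cover counting error only, because the labels mention no molecular identifiers and reads from PCR copies are not separate molecules.

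Both FGF ligands fell. FGF2, basic FGF (chromosome 4, plus strand, 123747837 to 123819391), had 10.9 and 10.3 CPM with the PELP1 shRNA and 23.1 and 20.4 CPM with the control shRNA. The knockdown libraries lay below both controls, at 48.8% of their level, with a log2 fold change of −1.04 ± 0.09 (SE; edgeR FDR = 4.34e-15; against a 1.5-fold change, FDR = 1.79e-05). FGF5, known as a regulator of the hair cycle and expressed in some tumours (chromosome 4, plus strand, 81187793 to 81257834), had 2.09 and 1.96 CPM with the PELP1 shRNA and 5.39 and 4.94 CPM with the control shRNA, from 63 and 54 reads against 126 and 127. Its log2 fold change was −1.35 ± 0.18 (SE; edgeR FDR = 1.89e-09; against a 1.5-fold change, FDR = 0.00013), 39.3% of control. CFAP299, counted under its older symbol C4orf22 with 0 to 2 reads per library, shares 136 of its exonic bases with FGF5 in the same orientation.

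Of the members, FGF2 and PDGFD share exonic bases, on the opposite strand, with a gene found by name in the count files. FGF2 shares 804 exonic bases with NUDT6, whose transcripts are known as the FGF2 antisense RNA. NUDT6 went the other way, with 4.77 and 4.10 CPM in the PELP1 shRNA libraries and 3.55 and 2.68 CPM in the control libraries (log2 fold change 0.52 ± 0.17, SE, edgeR FDR = 0.00798). FGF2 reads per NUDT6 read were 2.28 and 2.51 with the PELP1 shRNA, against 6.51 and 7.61 with the control shRNA. The NUDT6 call was lost with DESeq2 (adjusted p = 0.12), with biological variation fixed at 20% (0.456), without PELP1 shRNA replicate 1 (0.114) and without control shRNA replicate 2 (0.194), and that of FGF2 was not lost in these. The sources used here do not give the strand setting of the read counting, so reads in the shared bases cannot be assigned to one gene or the other.

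**Figure D3:**
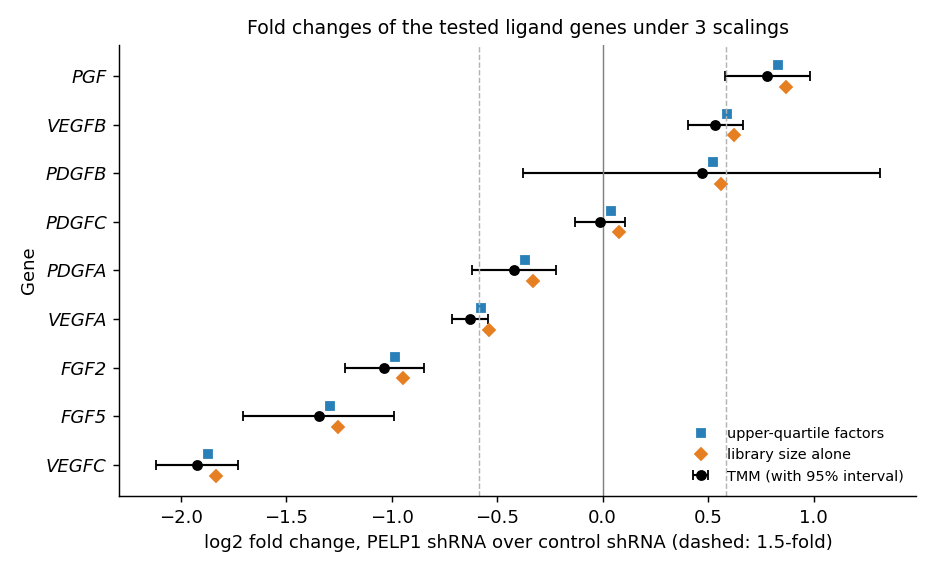
Log2 fold change (PELP1 shRNA over control shRNA) of the 9 tested ligand genes with TMM scaling and its 95% interval (black circles and bars), upper-quartile scaling (blue squares) and library size alone (orange diamonds). Dashed lines stand at 1.5-fold. VEGFC, FGF5 and FGF2 lie beyond the lower line under each scaling, and PDGFC lies on either side of 0 (−0.01, 0.04 and 0.08).

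Of the 13 receptor genes of the 3 families, all tested, 6 were lower, 1 was higher and 6 did not pass. Their median log2 fold change was −0.23. Over all tested genes 58.1% were called, 29.5% lower and 28.6% higher. The PDGF receptors fell. PDGFRA, the receptor of PDGFA and PDGFC, had 1.19 and 1.23 CPM with the PELP1 shRNA and 5.82 and 5.44 CPM with the control shRNA (log2 fold change −2.21 ± 0.20, SE, edgeR FDR = 1.98e-15). PDGFRB, which binds PDGFB and PDGFD, averaged 7.75 ± 0.704 CPM with the PELP1 shRNA and 14.2 ± 1.02 CPM with the control shRNA (SD, n = 2 each; log2 fold change −0.87, edgeR FDR = 2.61e-10). Both are also among the fibroblast markers whose sum is given above.

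FGFR1 and FGFR2 moved in opposite directions. FGFR1, with the highest count of the FGF receptors, had 104.3 and 100.1 CPM with the PELP1 shRNA and 190.7 and 193.2 CPM with the control shRNA (log2 fold change −0.91 ± 0.04, SE, edgeR FDR = 3.9e-28). FGFR2 had 5.87 and 6.42 CPM with the PELP1 shRNA, against 2.87 and 2.72 CPM with the control shRNA (log2 fold change 1.14 ± 0.16, SE, edgeR FDR = 8.48e-09). Among receptors of the VEGF ligands, NRP2, a coreceptor of VEGFC, had the highest count of the list, 257.7 ± 5.37 CPM with the PELP1 shRNA and 301.2 ± 5.61 CPM with the control shRNA (SD, n = 2 each; log2 fold change −0.23, edgeR FDR = 4.35e-07). The following were chosen after their values were seen. FLT4, which encodes VEGFR3, had 21.4 and 20.8 CPM with the PELP1 shRNA and 20.2 and 21.2 CPM with the control shRNA (log2 fold change 0.02, edgeR FDR = 0.829). FLT1, which encodes the receptor of VEGFB and PGF, stood at −0.43 (edgeR FDR = 0.00244), a call lost with DESeq2 (adjusted p = 0.0562) and with biological variation fixed at 10% or 20% (0.0558 and 0.56), and KDR, the gene of VEGFR2, at 0.36 (edgeR FDR = 0.192). NRP1, a coreceptor of VEGFA, stood at −0.06 (edgeR FDR = 0.157) and at 0.03 with library size alone.

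Among 21 other genes of the ligand families, 6 had enough reads to test, of which 3 were higher and 0 lower. All tested genes had 28.6% higher and 29.5% lower. Of the 3 that were higher, only FGF9 encodes a secreted ligand. The count of lower genes was also 0 in DESeq2, in limma-voom and, in the main test, at an unadjusted p under 0.05. DESeq2 called 2 higher and limma-voom 3. FGF12 and FGF11, members of the FGF homologous factors that stay inside the cell and bind sodium channels, had 20.4 ± 0.616 and 17.4 ± 0.033 CPM with the PELP1 shRNA and 10.2 ± 0.955 and 9.32 ± 0.979 CPM with the control shRNA (SD, n = 2 each). Their log2 fold changes were 0.99 ± 0.10 and 0.90 ± 0.10 (SE; edgeR FDR = 4.56e-14 and 8.58e-12). FGF9, a secreted ligand, rose by 0.59 (edgeR FDR = 0.00161), a call lost with DESeq2 (adjusted p = 0.0594), with biological variation fixed at 20% (0.344), without PELP1 shRNA replicate 1 (0.0535) and without control shRNA replicate 2 (0.127; log2 fold change 0.35).

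Of 11 genes whose products process the ligands, all tested, 6 were lower and 1 was higher (median log2 fold change −0.48). The shares over all tested genes were 29.5% lower and 28.6% higher. CCBE1 is a secreted factor that the ADAMTS3 protease needs to activate VEGFC. It had 1.76 and 1.92 CPM with the PELP1 shRNA and 12.9 and 13.1 CPM with the control shRNA (log2 fold change −2.82 ± 0.15, SE, edgeR FDR = 4.55e-26). VEGFC and its processing cofactor were therefore both lower in both knockdown libraries. ADAMTS3, chosen after its values were seen, did not pass (0.30 ± 0.14, SE, edgeR FDR = 0.058) and was called higher in edgeR with library size alone (adjusted p = 0.0122), upper-quartile factors (0.0247) or a filter at 5 CPM (0.0396). PLAT, tissue plasminogen activator, which can activate PDGFC, had 60.4 and 60.9 CPM with the PELP1 shRNA and 276.8 and 277.9 CPM with the control shRNA (log2 fold change −2.19 ± 0.04, SE, edgeR FDR = 9.14e-49). PLAU, urokinase, which can activate PDGFD, was lower by 0.91 on the log2 scale in the same comparison (271.7 ± 7 CPM with the PELP1 shRNA and 509.6 ± 10.3 CPM with the control shRNA, SD, n = 2 each, edgeR FDR = 7.5e-32). ADAMTS1, a protease that binds VEGFA, fell by 3.23 on the log2 scale (edgeR FDR = 4.5e-53). Among the proprotein convertases, PCSK6 rose by 1.01 (edgeR FDR = 2.92e-17), and FURIN, chosen after its values were seen, fell by 0.48 (edgeR FDR = 6.37e-17).

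Coreceptors and carriers of FGF ligands moved both ways, with 6 of 12 tested genes lower and 3 higher (median −0.13). The background of all tested genes was 29.5% lower and 28.6% higher. SDC2, a membrane heparan sulfate proteoglycan, averaged 41.3 ± 0.932 CPM with the PELP1 shRNA and 88.3 ± 3.12 CPM with the control shRNA (SD, n = 2 each; log2 fold change −1.09, edgeR FDR = 1.01e-26). HSPG2, the basement membrane proteoglycan perlecan, fell by 1.00 (edgeR FDR = 9.78e-23), GPC6 fell by 0.82 (edgeR FDR = 2.71e-07) and SDC1, with the highest count of the list, fell by 0.53 (edgeR FDR = 8.72e-19). GPC3 rose by 1.63 on the log2 scale, with 4.79 ± 0.306 CPM with the PELP1 shRNA and 1.54 ± 0.126 CPM with the control shRNA (SD, n = 2 each, edgeR FDR = 8.57e-11).

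Transcripts known to rise with FGF and ERK signalling moved both ways. Of 16 tested genes, 5 were lower, 3 were higher and 8 did not pass, against 29.5% lower and 28.6% higher of all tested genes. The median of the 16 was −0.05 on the log2 scale and 0.04 with library size alone. DUSP6, a phosphatase of ERK, had 116.6 and 115.9 CPM with the PELP1 shRNA and 116.1 and 117.8 CPM with the control shRNA. That gene (log2 fold change −0.01, edgeR FDR = 0.876), the ERK pathway inhibitor SPRY2 (−0.02, edgeR FDR = 0.773) and the transcription factor gene ETV4 (−0.01, edgeR FDR = 0.857) were chosen after their values were seen, and all 3 had a positive sign under upper-quartile scaling and by library size alone. ETV5 (0.21, edgeR FDR = 1.38e-05) and DUSP4 (0.60, edgeR FDR = 1.2e-09), chosen likewise, were higher. Lower were IL17RD, an FGF receptor antagonist (−1.32, edgeR FDR = 4.03e-18), DUSP5, a nuclear ERK phosphatase (−1.03, edgeR FDR = 2.65e-15), and, at means of 1.21 and 1.19 CPM over the libraries, SPRED3 (−1.35, edgeR FDR = 0.000107) and FLRT3 (−1.14, edgeR FDR = 0.000846). PHLDA1, with the highest count of the list, rose by 0.12 (edgeR FDR = 0.0027).

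Genes of oxygen sensing, the pathway best known for control of VEGFA, had 5 higher and 1 lower among 8 tested (median log2 fold change 0.28), against 28.6% higher and 29.5% lower of all tested genes. With biological variation fixed at 10%, 2 were higher and 0 lower (3 and 0 at an unadjusted p under 0.05), and at 20% 1 was higher (EPAS1) and 0 lower, adjusted or not, by edgeR's likelihood ratio test. DESeq2 and limma-voom each called 5 higher and 1 lower. The calls of HIF1A, ARNT and ARNT2 below were lost at both 10% and 20%. EPAS1, which encodes HIF-2α, had 94.9 and 96.4 CPM with the PELP1 shRNA and 48.4 and 47.8 CPM with the control shRNA (log2 fold change 0.99 ± 0.05, SE, edgeR FDR = 1.65e-25). HIF1A, with the highest count of the list, was lower, with 534.2 ± 6.23 CPM with the PELP1 shRNA and 602.9 ± 17.7 CPM with the control shRNA (SD, n = 2 each; log2 fold change −0.17, edgeR FDR = 1.68e-05). The HIF partner genes ARNT and ARNT2 rose by 0.31 and 0.29 (edgeR FDR = 6.76e-06 and 7.08e-06), and HIF1AN, an inhibitory hydroxylase of HIF, rose by 0.36 (edgeR FDR = 2.73e-09).

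Among 18 tested genes of other angiogenic systems, 11 were lower and 4 higher (median log2 fold change −0.51). For all tested genes these shares were 29.5% lower and 28.6% higher. A ligand and its receptor were both lower. ANGPT1, a ligand of TEK, had 2.55 and 2.72 CPM with the PELP1 shRNA and 11.7 and 11.8 CPM with the control shRNA (log2 fold change −2.15 ± 0.14, SE, edgeR FDR = 1.71e-21). TEK, the receptor of angiopoietins, had 3.12 and 3.45 CPM with the PELP1 shRNA and 23.5 and 23.7 CPM with the control shRNA (log2 fold change −2.85 ± 0.11, SE, edgeR FDR = 9.48e-32). TEK and TIE1 are also among the endothelial markers. TIE1, the receptor that pairs with TEK, fell by 1.42 (edgeR FDR = 8.36e-31) and SEMA3E, a vascular guidance ligand, by 2.13 (edgeR FDR = 1.44e-21). MET, the receptor of hepatocyte growth factor and the gene with the highest count of the list, fell by 0.81 (edgeR FDR = 6.62e-30), with 389.6 ± 7.56 CPM with the PELP1 shRNA and 682.2 ± 17.4 CPM with the control shRNA (SD, n = 2 each).

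**Figure D4:**
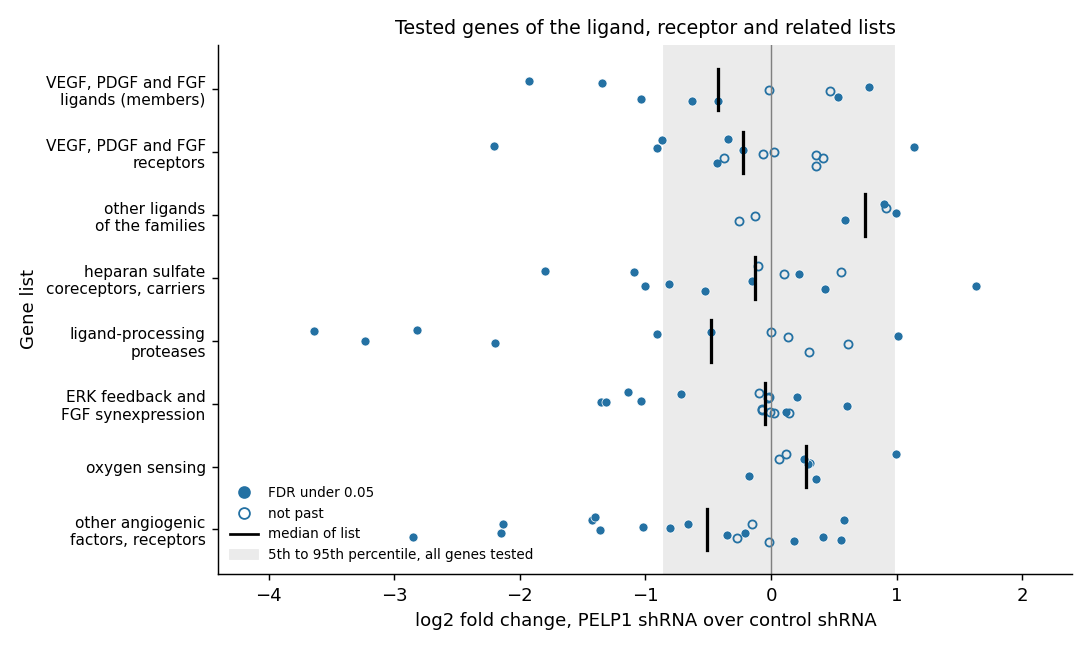
Log2 fold change (PELP1 shRNA over control shRNA) of each tested gene, by list, with filled points for FDR under 0.05 and black bars at list medians; the grey band spans the 5th to 95th percentile of all tested genes (−0.85 to 0.98). The ligands run from −1.92 (VEGFC) to 0.78 (PGF), processing genes reach −2.82 (CCBE1) and below, and the ERK feedback list has its median at −0.05.

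By position, 4 of the 10 ligands lie on chromosome 4 (VEGFC, PDGFC, FGF2 and FGF5). Of 479 tested genes placed there, 34.2% were lower and 25.5% higher (median −0.03 on the log2 scale). The nearest tested protein-coding neighbours of VEGFC placed by symbol, SPCS3 and NEIL3, lay 351.3 and 517 kb away and stood at −0.27 and −0.34. Those of FGF2 were NUDT6 and BBS12 (0.05), and those of FGF5 were PRDM8 at 62.3 kb (−1.68, edgeR FDR = 2.82e-13) and PRKG2 at 750.7 kb (−0.16). VEGFB, which rose, lay 0.298 kb from DNAJC4 (0.08) and 1.74 kb from FKBP2 (−0.05), neither of which passed the threshold. Of 20 such neighbours, PRDM8 and FAM20C, next to PDGFA (0.87), stood farthest from 0.

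The genes most like VEGFC across the 4 libraries, by the distance of log2 CPM centred on each gene's mean, were COL6A2, COL8A1 and HNRNPUL1 (distances 0.112, 0.12 and 0.128 of 11324 genes compared), with log2 fold changes of −1.86, −1.87 and −1.85. Those most like FGF5 were PLXNA2, SEMA3C and CTSS (0.0329, 0.068 and 0.0852), at −1.32, −1.41 and −1.37. With 4 libraries in 2 groups this likeness follows the fold change almost alone.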

How the data were processed

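Counts of 4 RNA-seq libraries were used: 2 from Daoy cells with a PELP1 shRNA and 2 with a control shRNA. The deposited values are raw read counts per gene symbol. Per the submitters' processing notes, TopHat2 2.0.8b, HTSeq and hg19 were used, and per the labels' protocols, libraries came from a TruSeq total RNA kit with 50 bp single-end reads. The sources used here give no HTSeq version, strand setting or gene annotation. The 5 rows that name no gene were left out. Of each file's total, 29.4% to 30.8% were alignments that were not unique, 8.83% to 9.08% reads in no gene and 0.579% to 0.602% ambiguous reads.

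Counts were fitted with edgeR 4.0.16 in R 4.3.3 (filterByExpr, TMM, robust quasi-likelihood F test, two-sided, Benjamini-Hochberg adjustment over all 14972 genes tested), and against a 1.5-fold change with glmTreat. DESeq2 1.42.0, limma-voom 3.58.1 and other scalings, filters, blocks and left-out libraries were alternatives. The procedure was tested on simulated data. Replicates differed by more than counting noise (chi-square per degree of freedom 2.37 for the PELP1 shRNA pair and 2.47 for the control shRNA pair), so each library counted as 1 sample. The common biological coefficient of variation was 2.99%.

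The members and gene lists were chosen with earlier results of these data known. From each list the text names up to 4 genes with the largest change past the threshold (at least 1 CPM on average, groups not overlapping) and the most abundant one. The text marks list and marker genes named outside that rule, apart from NUDT6 and others named by their position. Likeness was computed among genes of at least 5 CPM for the pair of members with the largest change. Positions, lengths and exon overlaps are from GENCODE v44 lifted to GRCh37, which need not be the annotation the authors counted with. Promoters are RefSeq windows.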

Additional observations from a re-analysis of the deposited data

How the results depend on the processing

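The directions and calls of VEGFC, FGF2 and FGF5 held in each alternative that tested them. VEGFA, VEGFB, PGF and PDGFA kept theirs except with biological variation fixed at 20% (adjusted p = 0.2, 0.342, 0.0912 and 0.545). That setting called 1325 genes in all, with 3 members lower and 0 higher (1 higher at an unadjusted p under 0.05 in edgeR, and 2 called higher with DESeq2 or limma-voom), and 10% called 4363 genes in all. At 10% the list genes NRP2, PHLDA1, ETV5, HIF1A, ARNT, ARNT2 and FLT1 lost their calls (adjusted p = 0.251, 0.581, 0.292, 0.395, 0.104, 0.131 and 0.0558). The list genes SDC1, GPC6, FURIN, DUSP4, HIF1AN and MET each lost their call in 1 alternative. Of the lists, receptors had 1 higher and 3 lower at both 10% and 20%, and other angiogenic genes 3 higher and 9 lower at 10% and 0 higher and 7 lower at 20% (0 higher also at an unadjusted p under 0.05, against 4 in the main test and with limma-voom and 3 with DESeq2). Coreceptors and carriers of FGF ligands had 2 higher and 5 lower at 10% and 1 higher and 3 lower at 20%. The ERK feedback list had 1 higher and 5 lower at 10%. At 20% it had 0 higher and 4 lower (1 and 5 at an unadjusted p under 0.05), against 3 higher and 5 lower with DESeq2 or limma-voom. Without each library in turn, the members called stayed at 2 higher and 5 lower. Tested against a 1.5-fold change, 3 members passed in the main test, 4 by library size alone, upper-quartile scaling or with no low-count filter, and 2 with the filter at 5 CPM, which removed FGF5; over all genes that filter left 935 calls in place of 1442. Scaling by library size alone gave 5681 higher and 3305 lower calls in place of 4276 and 4424, 63.2% higher in place of 49.1% (57.9% under upper-quartile scaling), with medians of all genes at 0.09 and 0.06 on the log2 scale.

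Signs turned, with no call on either side, for PDGFC under upper-quartile scaling (0.0411), by library size alone (0.0781) and at 5 CPM (0.00396), and without 1 library it ranged from −0.0269 to 0.00226. DUSP6 turned in the same 3 settings (0.0441, 0.081 and 0.00696), as did ETV4 (0.0401, 0.0772 and 0.0030). SPRY2 turned with upper-quartile factors (0.0283) and library size alone (0.0653), and NRP1 with library size alone (0.0261). Without 1 library DUSP6 ranged from −0.0208 to 0.00179, ETV4 from −0.0854 to 0.0649 and FLT4 from −0.0117 to 0.0586. The cause of these sign changes was not tested. The replicate numbers are not stated to pair libraries, and deviations of same-numbered libraries correlated at 0.0109 (−0.154 among genes of at least 5 CPM). The replicate block called 8161 genes and a crossed replicate block, added after the data were seen, 9284, with 2 members higher and 5 lower in both. PDGFB and PDGFD had 0 to 21 reads per library, which limits what could be detected.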
